A study of Saccharomyces cerevisiae with 112 samples.

Results

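The 76 genes described here encode the proteins of the large subunit of the cytosolic ribosome of Saccharomyces cerevisiae and carry the symbol RPL followed by a number. They were chosen by symbol, without the mitochondrial MRPL genes and the acidic stalk genes RPP, and make up 76 of the 5560 yeast features counted in the files. Of these genes, 66 form 33 pairs of duplicated copies called A and B, and 10 have a single copy. The choice by symbol used no measured value, and every one of the 76 genes had enough reads to enter every test.

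The study followed mRNA after glucose was withdrawn from yeast cultures, using SLAM-seq, in which 4-thiouracil (4TU) built into new RNA is read as T-to-C conversions after alkylation. A pulse and chase in strain KWY165 was sampled at 0, 5, 10, 15, 20, 30 and 45 min with glucose and without glucose, with 2 courses of each kind and 28 libraries in all. In strain KWY11376, total RNA and polysomes were sequenced after 30 min of 4TU with glucose and after 30 min without glucose, the second titled as post-labeling, with 2 libraries in each of the 4 groups. The same 4 kinds of sample without 4TU came from strain KWY165, with 1 library each. The labels give neither the genotypes of the strains nor the moment at which 4TU was given relative to the withdrawal in the polysome experiment. No source says that the 2 libraries of a group came from separate cultures, so p-values measure the spread between these libraries, which may be technical.

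Large subunit ribosomal proteins surround a core of ribosomal RNA that holds the peptidyl transferase centre. The proteins are made in the cytoplasm, imported into the nucleus, and built into the subunit in the nucleolus, many of them escorted by dedicated chaperones. In growing yeast their genes are transcribed together under Rap1, Fhl1, Ifh1 and Sfp1, downstream of TORC1 and protein kinase A, and glucose loss is known to shut this transcription down. Most of the genes were kept as duplicates after the ancient whole-genome duplication, and the proteins of a pair are identical or nearly so.

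The chase libraries held 2710630 to 10591665 yeast reads, the 4TU libraries 14965187 to 31069123 and those without 4TU 15482446 to 29223067. Chase libraries also held 31671 to 213959 reads of spike-in features. Reads were counted in windows at the 3′ ends of genes. The share of multimapped reads in a member's window ran from 0.038% to 0.97%, with RPL39 highest, although the coding parts of A and B copies are close to identical. No label or header says how a read that fits both copies was placed, so the split between copies is uncertain to that extent.

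RPL transcripts filled 15.7% of yeast reads in both courses with glucose at 0 min, and 15.8% and 16.5% in the courses without. After 45 min with glucose the share had grown to 22.9% and 22.5%, and after 45 min without glucose it had shrunk to 4.75% and 5.46%. The conditions did not overlap at 45 min, and both courses of a condition lay close together. RNA came from whole cultures, in which fewer cells with a transcript and fewer copies per cell cannot be told apart.

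All 76 genes were lower without glucose than with glucose at 30 min of the chase by the quasi-likelihood test of edgeR, at a threshold of 0.05 on p-values adjusted over the 5525 features tested (Benjamini-Hochberg). Of all features, 34.7% were called lower in this comparison. The median log2 change of the members was -1.96, from -3.09 for RPL35B to -0.61 for RPL15B, and the median of all features was 0.06. The log2 values of the members had an SD of 0.44 around their mean.

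RPL35B, a protein beside the opening of the exit tunnel, lies on chromosome IV at 218118 to 218703 on the plus strand in the files' coordinates, for which no label or header names the build. At 30 min it had 1291 and 1326 CPM (reads of a gene, scaled to the same total of yeast reads in every library) with glucose, and 182 and 194 without. These values differ by a log2 change of -3.09 ± 0.166 (SE; edgeR, adjusted p = 2.96e-14). RPL15B, on chromosome XIII at 509469 to 509984 on the minus strand, is the copy of RPL15 with fewer reads. It had 107 and 97.1 CPM with glucose, and 91.8 and 73.0 without. Its libraries also did not overlap, but the gap was small, with a log2 change of -0.61 ± 0.185 (SE; edgeR, adjusted p = 0.00477).

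Between these ends, RPL7B had 255 and 287 CPM with glucose and 46.3 and 52.1 without, a log2 change of -2.75 ± 0.177 (SE; edgeR, adjusted p = 8.79e-13). RPL14B had 1583 and 1424 with glucose against 275 and 311 without, a log2 change of -2.65 ± 0.137 (SE; edgeR, adjusted p = 1.40e-14). In each of these genes the libraries without glucose lay below both libraries with glucose. RPL4A, which lines the exit tunnel, had 2406 and 3088 with glucose against 1799 and 2102 without, so the gap was small beside that of most members (log2 -0.79 ± 0.163, SE; edgeR, adjusted p = 1.32e-04).

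The difference built up over the course. At 0 min edgeR called 0 members in either direction, with a median log2 change of 0.04, and RPL15A alone had an unadjusted p below 0.05. At 5 min 27 of the 76 members were lower (5.45% of all features), at 10 min 58 (18.2%) and at 20 min 75 (29.6%), with RPL15B the exception at 20 min. At 45 min all 76 were lower (36.9%). The members' median passed through -0.35, -0.59, -0.86 and -1.30 to -2.73 at 45 min. The median of all features stayed near its start, where the TMM scaling of edgeR holds it. With libraries scaled to their spike-in reads, the median of all features was -0.42 at 30 min. The spread between members widened as well, from an SD of 0.14 at 0 min to 0.57 at 45 min. At 45 min the lowest member was RPL7B at -4.41 ± 0.193 (SE) and the highest was RPL15B at -0.40, both on the log2 scale.

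**Figure D1:**
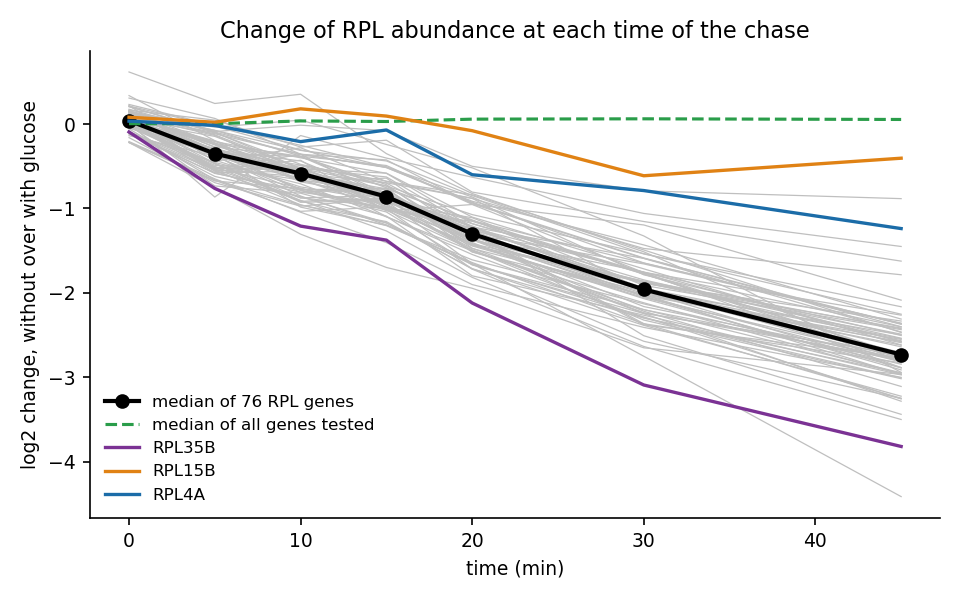
Log2 change of read abundance, without over with glucose, at each time of the chase in min, with a grey line for each of the 76 RPL genes, their median in black, the median of all features tested in green and 3 genes in colour. The median reaches -1.96 at 30 min, RPL35B lies at -3.09 and RPL15B at -0.61.

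Both sides of the comparison moved. Within the courses without glucose, 72 members were lower at 30 min than at 0 min, where 35.0% of all features were called lower, and the median log2 change was -1.33. The members outside the threshold were RPL4A at -0.14, RPL15B at -0.15, RPL3 at -0.22 and RPL41B at -0.28. RPL35B at -2.14, RPL23A at -1.87 and RPL26B at -1.81 had the lowest values.

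Within the courses with glucose, 63 members were higher at 30 min than at 0 min, where 3.57% of all features were called higher, and the median was 0.66. RPL7B at 1.24 ± 0.166, RPL4B at 1.17 ± 0.154 and RPL3 at 1.10 ± 0.219 (log2, SE) had the highest values. When libraries were scaled to their spike-in reads, the median was 0.41 and 3 members passed the threshold. Under that scaling 18 of all 5525 features were called higher, and the median of all features was -0.23. The count of 63 members also fell when a single library was left out, and so did the count over all features. The members' median then ran from 0.60 to 0.73 under the TMM scaling of edgeR.

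The chase labelled RNA first and then followed it, so reads with T-to-C conversions and reads without them could be counted apart, each per spike-in read. With glucose, the RPL genes together had 7.05 and 10.3 labelled reads per spike-in read at 0 min, 7.20 and 6.76 at 30 min, and 5.03 and 4.00 at 45 min. Without glucose they had 9.11 and 8.29 at 0 min, 2.10 and 2.55 at 30 min, and 1.14 and 1.16 at 45 min. The labelled pool at 45 min was thus 71.3% and 38.9% of its start with glucose, and 12.5% and 13.96% without.

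The genes outside the ribosomal protein families took the opposite order. Their labelled pool at 45 min was 26.8% and 15.8% of its start with glucose, and 34.7% and 35.6% without. Unlabelled RPL reads went from 4.30 and 6.29 per spike-in read at 0 min to 15.98 and 13.6 at 45 min with glucose. Without glucose they went from 5.29 and 4.93 to 1.07 and 0.896, which is 20.2% and 18.2% of the start, where unlabelled reads of the other genes stood at 116% and 100.4%. RPL reads of both kinds therefore declined without glucose, and the labelled share of RPL reads was 51.5% and 56.4% at 45 min, against 23.9% and 22.8% with glucose.

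**Figure D2:**
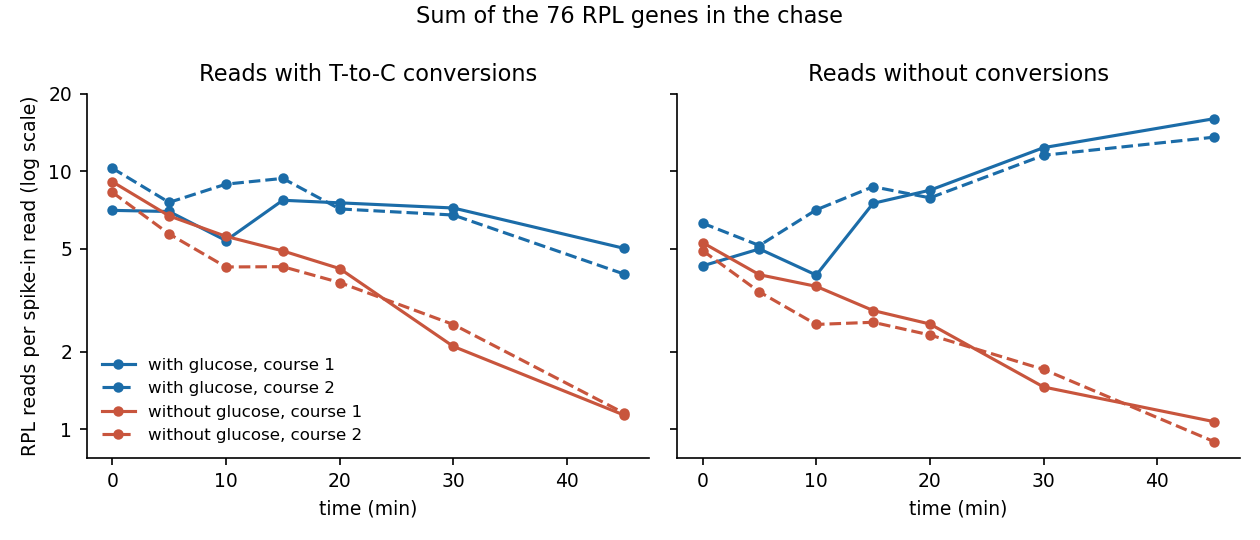
Reads of the 76 RPL genes per spike-in read (log scale) against time of the chase in min, for reads with T-to-C conversions on the left and without on the right, with a line for each course. Labelled reads end at 1.14 and 1.16 without glucose and at 5.03 and 4.00 with glucose, and unlabelled reads rise only with glucose.

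The fall of labelled reads per spike-in read was fitted as a slope for each gene and course, in log2 units per 10 min. The median slope of the members was -0.08 and -0.29 in the courses with glucose and -0.73 and -0.64 in those without. Of the 76 members, 71 had a steeper fall without glucose and 0 a shallower one in limma's moderated test of the difference at an adjusted p below 0.05, and 6.43% of all 5224 features tested were steeper. The median difference was -0.48 for the members and 0.17 for all features.

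RPL1A, of the mobile L1 stalk that guides tRNAs out of the ribosome, had the largest difference. Its labelled reads per 1000 spike-in reads went from 92.0 and 135 at 0 min to 86.4 and 63.9 at 45 min with glucose, and from 128 and 110.3 to 8.55 and 9.29 without. The courses were far apart by the end, and the slopes differed by -0.71 ± 0.111 (SE; limma, adjusted p = 2.51e-09). RPL26B at -0.70 and RPL15A at -0.68, each ± 0.111 (SE), followed.

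The members that did not pass were RPL41B at -0.24, RPL18B at -0.23, RPL9B at -0.23, RPL4A at -0.18 and RPL15B at -0.05. RPL15B had 2.63 and 3.18 labelled reads per 1000 spike-in reads at 0 min and 0.72 and 0.75 at 45 min with glucose, and 3.17 and 3.76 at 0 min and 0.97 and 0.69 at 45 min without. Its 4 course slopes overlapped between conditions. The SE is nearly the same for every gene because limma shares the variance over genes, and a shift of a whole course moves all members together. Without course 1 of the condition without glucose 44 members passed. On the log2 labelled share of a gene's own reads, all 76 slopes were less steep without glucose, with a median difference of 0.28. The count over all features was not taken on that scale. The labelled share of reads outside the RPL genes was also higher without glucose at 45 min.

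Grouped by place in the subunit, every member around the peptidyl transferase centre and tRNA sites, the tunnel, the stalks and the bridges to the small subunit was lower in the chase at 30 min. All 3 genes of the 5S RNP, RPL5, RPL11A and RPL11B, which dock 5S rRNA onto the subunit, were lower, with a median log2 change of -1.79. The 6 genes of the centre and tRNA sites had a median of -1.75, the 14 of the exit tunnel -2.02 and the 6 of the subunit bridges -1.72. RPL1A and RPL1B of the L1 stalk had -2.25 and -1.75, RPL12A and RPL12B of the base of the acidic stalk -2.29 and -2.04, and RPL40A and RPL40B, made as fusions to ubiquitin, -1.54 and -1.91. The lists were described and not tested against each other.

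The single-copy genes spanned much of the same range. RPL38, at 30 min, was lowest at -2.13, followed by RPL29 at -1.97, RPL28 at -1.95, RPL25 and RPL32 at -1.87, RPL10 at -1.65 and RPL5 at -1.59. RPL30, whose protein binds its own transcript to repress splicing, had -1.43 ± 0.138 (SE). RPL3, which reaches into the peptidyl transferase centre, had 3937 and 5195 CPM with glucose and 2176 and 2844 without, a log2 change of -1.15 ± 0.219 (SE; edgeR, adjusted p = 5.63e-05). RPL39, a very small protein of the tunnel exit, had 661 and 644 against 364 and 403, at -1.06 ± 0.243 (SE; edgeR, adjusted p = 4.68e-04).

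All 33 A copies and all 33 B copies were lower at 30 min, with medians of -2.01 and -1.98. The copies of a pair did not always change equally. The log2 ratio of A to B reads within a library, which needs no scaling between libraries, was tested with limma for all 61 A and B pairs in the files, of which 57.4% were called in either direction. Among the 33 RPL pairs the ratio was higher without glucose in 8 and lower in 8, a share near that of the 61 pairs of which they are part. The median absolute change was 0.38 and the largest 1.09.

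RPL35 had 1.25 and 1.61 A reads per B read with glucose and 3.12 and 2.92 without. The ratio changed by 1.09 ± 0.123 on the log2 scale (SE; limma, adjusted p = 4.50e-07), as the A copy at -2.02 had lost less than the B copy at -3.09. The ratio had been 1.88 and 1.89 with glucose and 1.73 and 1.87 without at 0 min, and was 4.02 and 3.84 at 45 min without glucose.

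RPL4 moved the same way, from 1.54 and 1.68 A reads per B read with glucose to 2.71 and 2.73 without (log2 0.76 ± 0.0941, SE; limma, adjusted p = 1.61e-06). RPL17, also at the tunnel exit, changed by 0.72 ± 0.155 (SE; limma, adjusted p = 6.93e-04). RPL22, the ribosomal protein with the most uneven pair among those called, moved in the other direction, from 14.99 and 14.7 to 7.97 and 8.86. Its change was -0.82 ± 0.176 (SE; limma, adjusted p = 6.86e-04). RPL41, which encodes the smallest ribosomal protein, changed by -0.68 ± 0.199 (SE; limma, adjusted p = 0.0083). RPL15 went from 16.8 and 21.9 to 8.49 and 12.4, a change of -0.90 ± 0.424 (SE; limma, adjusted p = 0.078) that did not pass. Without course 2 without glucose at 30 min, 5 pairs were higher and 3 lower, and 5 were higher without course 1 with glucose at 30 min.

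**Figure D3:**
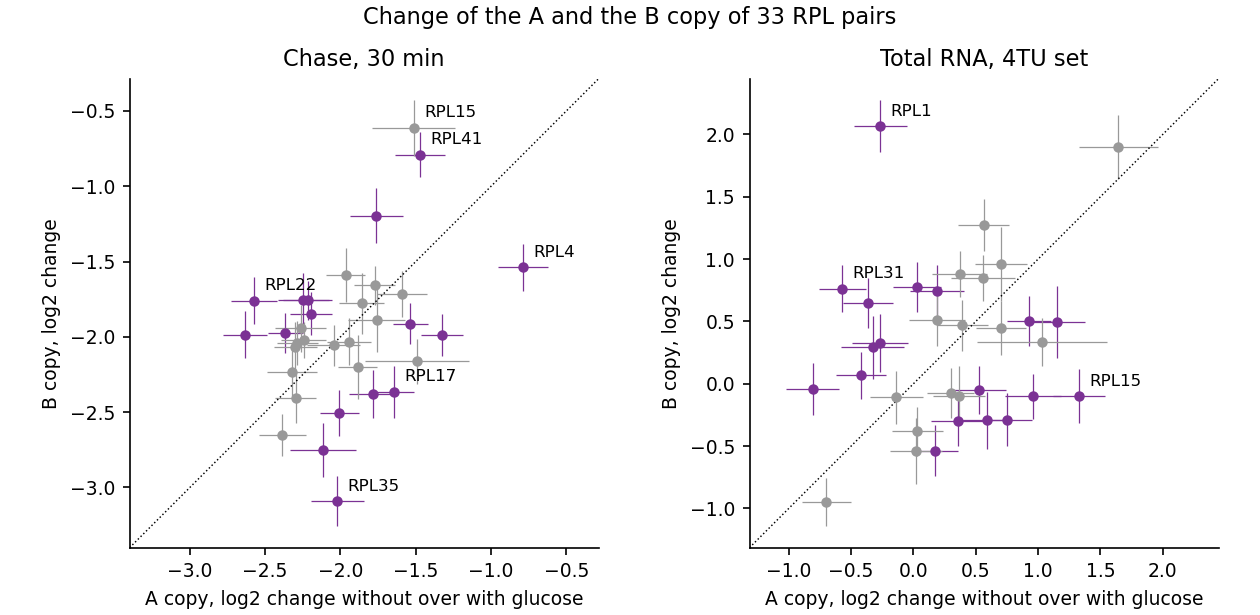
Log2 change of the A copy (horizontal) and the B copy (vertical) of 33 RPL pairs, without over with glucose, in the chase at 30 min and in total RNA of the 4TU set, with bars of 1 SE, a dotted line of equal change, and pairs with an A to B ratio past the threshold in purple. All pairs lie below 0 in the chase, and RPL1 stands apart in total RNA with the A copy at -0.27 and the B copy at 2.07.

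Genes outside the family were counted for context. Of the 56 small subunit RPS genes 55 were lower at 30 min of the chase, and all 5 RPP genes, where 34.7% of all features were. All 7 dedicated chaperones of RPL proteins were lower, with a median log2 change of -1.74. Among 8 measured regulators, SFP1 was higher at 0.89 ± 0.216 (SE; edgeR, adjusted p = 7.29e-04), and HMO1 at -0.43, RAP1 at -0.69, FHL1 at -1.10 and UTP22 at -2.56 were lower.

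In total RNA of the 4TU set the RPL genes did not move as a block. With glucose they made up 9.60% and 10.4% of reads, and without glucose 10.7% and 9.92%. The conditions of this set also differ in 4TU labelling. Of all yeast reads 49.4% and 50.8% were labelled in total RNA with glucose, and 1.79% and 1.65% without. Glucose and labelling cannot be told apart in comparisons between the conditions of this set. Of the 76 members 27 were higher without glucose and 6 lower, where 29.4% and 29.3% of all features were called higher and lower, so the share higher is near the background and the share lower is below it. The median log2 change was 0.33. It was -0.09 when libraries were scaled to their totals, with 12 members higher and 23 lower, a scaling that moved the median of all features by -0.43. Of all 5540 features, 1052 were then called higher and 2344 lower. Relative to all features the members' median was 0.35 under the TMM scaling of edgeR and 0.36 under library totals.

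The spread between members was wide, with an SD of 0.72 against 0.44 in the chase at 30 min. RPL1B had 1181 and 1189 CPM with glucose and 4016 and 3399 without, a log2 change of 2.07 ± 0.209 (SE; edgeR, adjusted p = 5.29e-07). RPL3 had 2190 and 1896 against 6194 and 5892, a log2 change of 1.99 ± 0.204 (SE; edgeR, adjusted p = 6.11e-07). RPL4B had 620 and 565 against 1744 and 1542, a log2 change of 1.90 ± 0.257 (SE; edgeR, adjusted p = 1.19e-05). In all of these the groups were well apart, with the libraries without glucose on top.

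At the other end, RPL39 had 119 and 189 CPM with glucose and 25.5 and 18.2 without, a log2 change of -2.42 ± 0.273 (SE; edgeR, adjusted p = 1.68e-06). RPL35B at -0.95 and RPL34A at -0.81 were the next lowest that passed, and RPL14B, RPL31A and RPL35A were lower too. Of the 6 genes of the peptidyl transferase centre and tRNA sites 5 were higher, with a median of 0.85, and of the 6 bridge genes edgeR called 0, also at an unadjusted p below 0.05. The exit tunnel list split into 5 higher and 4 lower of 14. Of the single-copy genes, RPL30 at 1.42, RPL5 at 1.23, RPL10 at 0.95 and RPL25 at 0.76 were higher, besides RPL3, and RPL28 at 0.10, RPL38 at 0.13, RPL29 at -0.14 and RPL32 at -0.31 did not pass, with RPL28 and RPL38 below 0 under library totals. The counts depended on single libraries: 17 members were higher without library 1 of total RNA with glucose, 15 were higher and 3 lower without library 1 of total RNA without glucose, and 3 were lower without library 2 of the latter.

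A and B copies did not always change equally in total RNA either. Both copies were higher in 4 pairs and lower in 1, 15 pairs had 1 copy called, 12 had none, and in 1 pair, RPL31, the copies were called in opposite directions (A -0.57, B 0.76). The A to B ratio was higher without glucose in 9 pairs and lower in 9, where 47.5% of the 61 pairs were called. The RPL share was near that of the 61 pairs, of which the RPL pairs are part. RPL1 had 1.49 and 1.70 A reads per B read with glucose and 0.312 and 0.323 without, a log2 change of -2.32 ± 0.160 (SE; limma, adjusted p = 1.92e-05).

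RPL31, at the rim of the tunnel exit, went from 5.16 and 5.64 A reads per B read to 2.01 and 2.30, a log2 change of -1.33 ± 0.143 (SE; limma). RPL15 rose from 6.75 and 11.1 to 29.2 and 19.3, by 1.46 ± 0.265 (log2, SE). In the 1 library per group without 4TU the change was -0.46 for RPL1, -0.30 for RPL31 and -0.36 for RPL15, and RPL15 was among the pairs with the opposite sign there. The ratio of RPL1 with glucose was 0.470 in total RNA without 4TU and 0.673 in both chase courses at 0 min, against 1.49 and 1.70 in the 4TU set. The 4TU set differs from the chase in strain and in experiment, and from the libraries without 4TU in strain and in 4TU, and within each of these contrasts the factors cannot be told apart. Without library 1 of total RNA without glucose 3 pairs were higher and 4 lower, and without library 2 of it 4 were higher and 3 lower.

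Polysomes are mRNAs carrying several ribosomes, and their reads were set against total RNA from the same condition. RPL genes filled 10.5% and 8.97% of polysome reads with glucose and 3.65% and 3.46% without. The polysome share is relative to other mRNAs and does not show how much mRNA was on polysomes in all.

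With glucose, 23 members were higher in polysomes than in total RNA and 5 lower, where 15.3% and 13.6% of all features were called. The median log2 value was 0.24, but -0.27 with 8 higher and 24 lower when libraries were scaled to their totals, which moved the median of all features by -0.51. Under that scaling 239 of all 5540 features were called higher and 2051 lower. RPL2B, next to the peptidyl transferase centre, had 1572 and 2175 CPM in total RNA and 5318 and 8061 in polysomes, at 2.35 ± 0.309 (log2, SE; edgeR, adjusted p = 1.05e-04). RPL23B at 2.02 and RPL23A at 2.00 followed. RPL39 at -1.71, RPL41B at -1.61 and RPL22B at -1.13 were lowest. Without library 1 of total RNA with glucose 13 members were higher, and without library 2 of polysomes with glucose 3 were lower.

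Without glucose, 55 members were lower in polysomes than in total RNA and 6 higher, where 24.4% and 25.7% of all features were called. The median was -1.40. The 6 genes above were RPL2B at 1.29, RPL23A at 1.12, RPL23B at 1.03, RPL4B at 0.94, RPL18B at 0.83 and RPL1A at 0.57, and 0 members were above when libraries were scaled to their totals. Under that scaling 429 of all 5540 features were called higher. Without library 1 of polysomes without glucose 3 were higher.

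The difference of these polysome values, without minus with glucose, was tested as an interaction in the same edgeR fit. It was lower in 60 of the 76 members and higher in 1, where 8.01% and 8.16% of all features were called, with a median of -1.49 against 0.01 for all features. Each role list moved downward, with medians of -2.16 for the 5S RNP, -1.66 for the centre and tRNA sites, -1.41 for the exit tunnel and -0.94 for the subunit bridges, of which 3 of 3, 5 of 6, 9 of 14 and 2 of 6 members were called lower. Of the single-copy genes 9 of 10 were lower, from RPL25 at -2.41 to RPL29 at -1.07. RPL39 at -0.33 was not called. Without library 2 of polysomes without glucose 2 members were higher.

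RPL17A had 1640 and 1796 CPM in total RNA with glucose, 2243 and 2088 in total RNA without, 1232 and 941 in polysomes with glucose, and 155 and 201 in polysomes without. Its polysome libraries without glucose stand far below all the others, and the difference was -2.71 ± 0.290 (log2, SE; edgeR, adjusted p = 1.40e-04). RPL22A and RPL13B had -2.65 ± 0.299 and -2.65 ± 0.291, and RPL25, which docks the signal recognition particle, had -2.41 ± 0.317 (log2, SE).

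**Figure D4:**
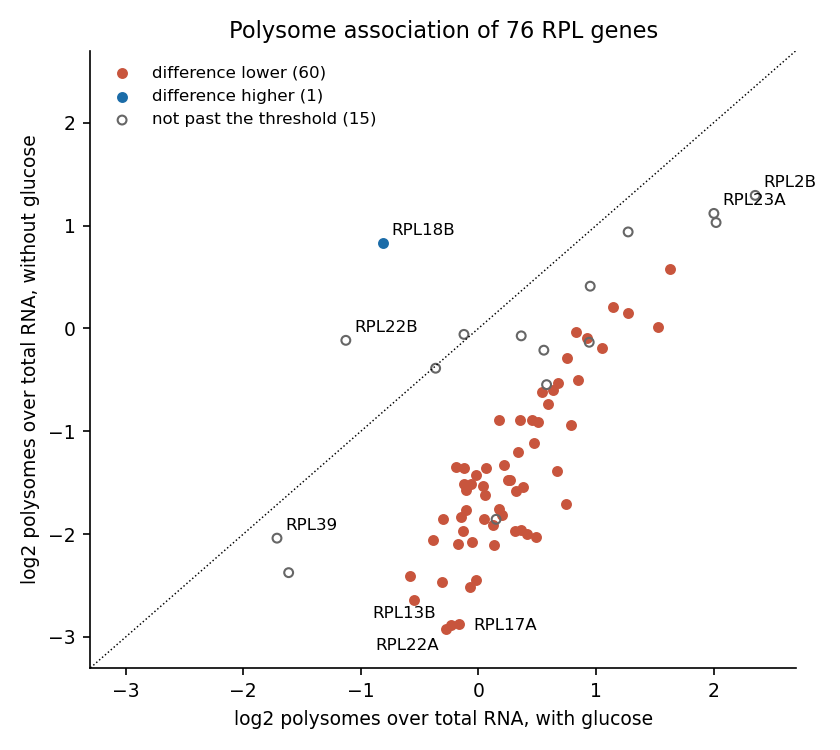
Log2 polysomes over total RNA in the 4TU set, with glucose (horizontal) and without glucose (vertical), for the 76 RPL genes, with a dotted line of equal values and colours for the test of the difference. Most genes lie below the line, 60 of them past the threshold, and RPL18B lies above it at -0.81 with glucose and 0.83 without.

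RPL18B was the gene called in the other direction. It lies on chromosome XIV at 63199 to 63820 on the minus strand in the files' coordinates. It had 254 and 233 CPM in total RNA with glucose, 178 and 160 in total RNA without, 108 and 86.9 in polysomes with glucose, and 187 and 169 in polysomes without. Its polysome libraries without glucose lay above those with glucose, while its total RNA libraries took the reverse order. The difference was 1.64 ± 0.254 (log2, SE; edgeR, adjusted p = 8.84e-04).

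The copies of RPL22 parted in polysomes. RPL22A (chromosome XII at 263699 to 264265, plus strand) had 1166 and 969 CPM in total RNA with glucose, 802 and 805 in total RNA without, 792 and 461 in polysomes with glucose, and 64.2 and 62.2 in polysomes without. RPL22B (chromosome VI at 63958 to 64493, minus strand) had 66.2 and 49.6, 31.2 and 27.7, 22.2 and 15.03, and 19.8 and 12.2 in the same order. The polysome libraries of RPL22A separated by condition, and those of RPL22B overlapped. Its own difference of 1.01 ± 0.382 (log2, SE; edgeR, adjusted p = 0.0829) was not called, and that of the RPL22 ratio was -3.58 ± 0.312 (log2, SE; limma, adjusted p = 6.36e-05).

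In libraries without 4TU, 1 per group and with no test, RPL18B went from 238 to 258 CPM in total RNA and from 229 to 463 in polysomes on glucose withdrawal. RPL22A went from 1946 to 799 in total RNA and from 745 to 78.1 in polysomes, and RPL22B from 176 to 52.2 and from 60.4 to 31.5. The difference of the A to B ratio was -2.79 for RPL22 on the log2 scale, of the same sign as in the 4TU set.

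**Figure D5:**
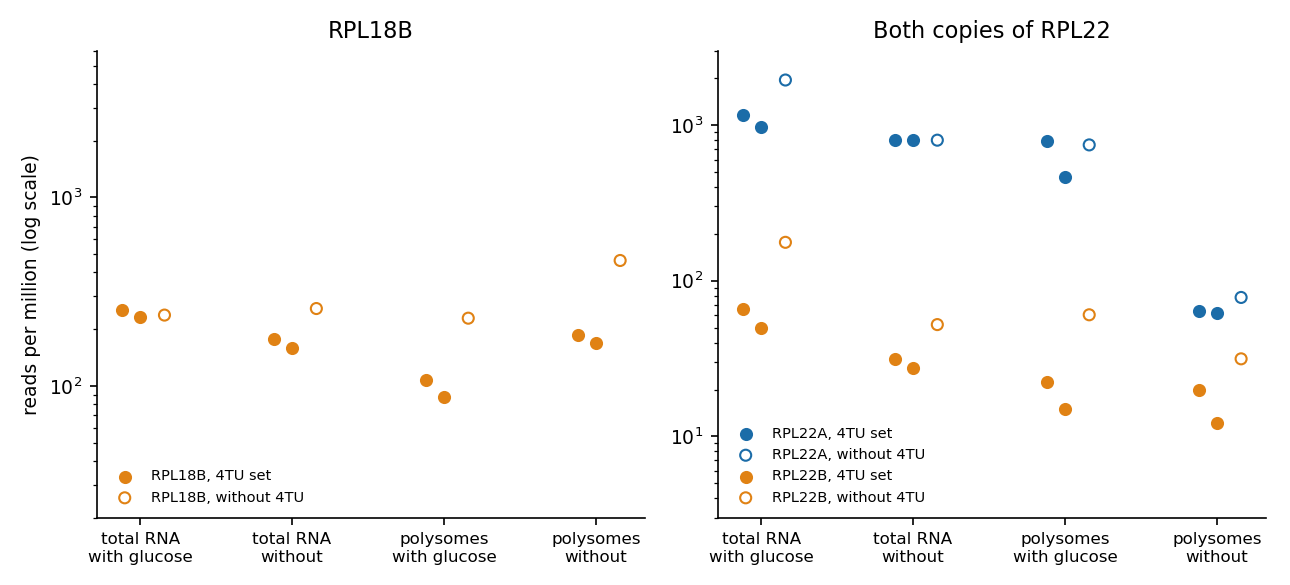
CPM (log scale) of RPL18B (left) and of both copies of RPL22 (right) in total RNA and polysomes with and without glucose, with filled points for each library of the 4TU set and open points for the library without 4TU. In polysomes RPL18B stands at 187 and 169 without glucose against 108 and 86.9 with glucose, and RPL22A at 64.2 and 62.2 against 792 and 461.

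Over all 33 pairs, the difference of the A to B ratio was higher in 4 and lower in 11, with a median absolute change of 0.58. Of the 61 pairs, which include the RPL pairs, 37.7% were called, a share near that of the RPL pairs. RPL9 at -1.89 ± 0.417 and RPL17 at -1.33 ± 0.241 (log2, SE; limma) were also lower. In 21 of the 33 pairs both copies were lower in polysome association. These counts rest on all 8 libraries: leaving out a library other than library 2 of polysomes with glucose gave 0 to 2 pairs higher and 2 to 10 lower.

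Labelled reads in the 4TU set show which RPL copies had taken up 4TU. The median member had 36.6% and 33.3% of its reads labelled in total RNA with glucose, 22.5% and 20.2% in polysomes with glucose, 1.11% and 0.88% in total RNA without, and 1.41% and 1.32% in polysomes without. Without 4TU the medians were 0.0157% to 0.0602%. RPL39 had the highest share in total RNA with glucose, at 77.9% and 80.6%.

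With glucose, the odds of a read being labelled were lower in polysomes than in total RNA for 68 of the 76 members and higher for 0 in edgeR, where 34.4% of all 5381 features tested were lower. The median log2 odds ratio was -0.96 for the members and -1.02 for all features, so the members' median lies close to that of the genome. RPL14B at -2.15 ± 0.271, RPL23A at -1.64 ± 0.245 and RPL2B at -1.59 ± 0.242 (log2 odds, SE) were lowest. Without library 1 of total RNA with glucose 37 members passed, and 39 passed without library 2 of it or without library 2 of polysomes with glucose.

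Without glucose the median was 0.44, and 4 members had higher labelled odds in polysomes and 1 lower, where 0.725% and 0.186% of all features were called. RPL34A had 0.469% and 0.174% of reads labelled in total RNA and 1.57% and 2.08% in polysomes, a log2 odds ratio of 2.54 ± 0.447 (SE; edgeR, adjusted p = 3.81e-04). RPL13B at 1.44, RPL37B at 1.31 and RPL37A at 1.15 were also higher. Without library 2 of polysomes without glucose 11 members were higher and 2 lower, and 1 or 2 were higher when any other library of these groups was left out.

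RPL14B stood apart from every other member. Its labelled share in total RNA without glucose was 18.2% and 26.8%, against 1.91% and 1.11% in polysomes without glucose, and 0.165% in the total RNA library without glucose and without 4TU. Both total RNA libraries lay far above both polysome libraries, with a log2 odds ratio of -4.25 ± 0.326 (SE; edgeR, adjusted p = 7.51e-15). Its duplicate RPL14A had 2.25% and 2.24% in total RNA and 2.82% and 1.96% in polysomes, and was not called (log2 odds 0.07 ± 0.256, SE).

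Where members ranked alike between experiments was described over the 76 genes, without a test, since genes share libraries and scaling. The log2 change in total RNA of the 4TU set and of the libraries without 4TU had a Pearson r of 0.72 and a Spearman rho of 0.68. For the difference of polysome values these were 0.48 and 0.32. The change in the chase at 30 min against total RNA of the 4TU set had 0.35 and 0.46, against total RNA without 4TU 0.65 and 0.74, and against the polysome difference of the 4TU set 0.11 and 0.09.

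The members' median in total RNA, taken relative to the median of all features, was -2.02 in the chase at 30 min, 0.35 in the 4TU set and -0.92 without 4TU. With both sets scaled to library totals and not taken relative to all features, it was -0.09 in the 4TU set and -0.82 without 4TU. The median of all features was -0.45 and 0.10 under that scaling. Relative to all features, the members' median thus lay above in the 4TU set and below without 4TU. Without 4TU 71 of the 76 members were below 0 and 33 were at least 2-fold lower than the median of all features, against 11.5% of all 5351 features. RPL reads went from 19.6% to 12.6% of total RNA reads and from 14.8% to 4.31% of polysome reads in the libraries without 4TU. The difference of polysome values had a median of -1.02 there, and 36 members were at least 2-fold below the median of all features, against 7.85% of all features. It ran from -2.88 for RPL21A to 1.62 for RPL41A. The A to B change had the same sign as in the 4TU set in 15 of the 18 pairs called in total RNA and 12 of the 15 called in the polysome difference, and in 22 and 24 of all 33 pairs.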

How the data were processed

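Of 112 samples, 72 were not analysed here, which leaves 40 SLAM-seq tables. The deposited values are whole-number counts of reads and of reads with T-to-C conversions per feature, from slamdunk 0.4.3 according to the header lines (per the file headers). The submitters' processing notes also list TopHat2, Bowtie, featureCounts and cutadapt, without roles or versions. A 3′ end kit is given for SLAM-seq and a directional kit for polysome enrichment, per the labels' protocols, which do not say which of them made the 4TU polysome libraries. How many conversions mark a labelled read is stated nowhere in the sources used. Of 5560 yeast features 5558 matched a gene table of assembly R64, which gave the symbols, and a feature absent from a table entered as 0. Members, gene lists, tests and alternatives were chosen with earlier results of these data known.

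Read counts were tested with edgeR 4.0.16 in R 4.3.3 (TMM, expression filter, robust quasi-likelihood test, Benjamini-Hochberg over all features, threshold 0.05), with the 28 chase libraries in 1 fit and the 8 libraries with 4TU in another. Slopes of log2((labelled reads + 0.5) / spike-in reads) per course and log2((A + 0.5) / (B + 0.5)) ratios were tested with limma 3.58.1, for features with a mean of at least 50 reads (slopes also at least 10 labelled reads in sum). Labelled odds were fitted in edgeR on labelled and unlabelled columns with an intercept per library. DESeq2 1.42.0, other scalings, filters, windows and a replicate block were alternatives, and each test was checked on simulated data. CPM values and spike-in ratios were computed from the counts. Libraries without 4TU, 1 per group, were described without a test. Named genes were the 3 largest called changes per direction and comparison, the pairs with the largest A and B differences, the single-copy genes and the role lists of 2 or 3 genes. Other genes named in the text, such as those just outside a threshold, RPL7B and RPL14A, and the labelled shares of RPL39, were chosen after their values were seen. Values of 1 member and of its pair, which the rule would name, are not reported here. Total counts per library limit the precision of genes with few reads, and no interval covers more than the spread between libraries.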

Additional observations from a re-analysis of the deposited data

Results flagged for a closer look

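The effect of polysome over total RNA differed between conditions by a test of the difference itself in 61 RPL genes: it was lower without glucose in 60 and higher in 1, where 8.01% and 8.16% of all features were called. RPL18B had a log2 difference of 1.64, against -2.71 for RPL17A, -2.65 for RPL22A and -2.65 for RPL13B. RPL18B kept its direction and its call under all alternatives run, between 1.40 and 1.79.

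The A to B ratio differed in the same way in 15 of the 33 RPL pairs, a share near the 37.7% called among all 61 pairs, of which they are part. Of these, 11 were lower, and leaving out 1 library gave 2 to 11 lower. RPL22 changed by -3.58 on the log2 scale. It kept its call under all alternatives run, between -3.91 and -3.26.

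In the chase, labelled reads per spike-in read fell more steeply without than with glucose in 71 RPL genes by a test of the difference between the slopes, where 6.43% of all features were steeper. The count was 44 without course 1 of the condition without glucose. The course is the unit of that test, with 2 courses a condition.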

How the results depend on the processing

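Library totals in place of TMM factors gave 12 members higher and 23 lower in total RNA (median -0.0876, RPL28 -0.32, RPL40A -0.0542, RPL38 -0.30), 8 higher and 24 lower in polysomes over total RNA with glucose (median -0.27) and 0 higher without glucose. They moved the median of all features by -0.43, -0.51 and -0.74 in these comparisons. Of all 5540 features, 1052, 239 and 429 were then called higher in the same order, and 2344, 2051 and 2775 lower. Spike-in scaling left 3 members higher from 0 to 30 min with glucose, where 18 of all 5525 features were called higher. Fitting the compared libraries alone gave 10 members lower in total RNA and 15 higher in polysomes with glucose. Of all features, 1817 of 5536 were then called lower in total RNA and 704 of 5495 higher in polysomes with glucose. The log2 labelled share in place of labelled reads per spike-in read turned the slope difference to a median of 0.28, with 76 members higher and 0 lower. Reads outside the RPL genes also had a higher labelled share without glucose at 45 min. Conversions over covered T positions gave 13 members with higher labelled odds in polysomes without glucose, a setting in which the count over all features was not taken. The causes were not tested.

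Leaving out 1 library at a time gave 26 to 58 members higher from 0 to 30 min with glucose, 15 to 34 higher and 3 to 6 lower in total RNA, 13 to 27 higher and 3 to 7 lower in polysomes with glucose, 3 to 5 higher in polysomes without glucose, and 1 to 2 higher in the polysome difference. It gave 44 to 75 steeper slopes, 37 to 58 members with lower labelled odds with glucose, and 1 to 11 higher and 1 to 2 lower without glucose. Pairs with a higher and a lower A to B ratio ran from 5 to 7 and 3 to 8 in the chase, 3 to 8 and 3 to 8 in total RNA, and 0 to 5 and 2 to 11 in the polysome difference. In total RNA RPL28 ran from -0.0585 to 0.271 and RPL15B from -0.299 to 0.0773, and in the polysome difference RPL39 ran from -0.820 to 0.0411. With an arm of 1 library, that library is assumed to vary like the other groups.

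The labels do not say that replicate numbers pair the samples, and same-numbered samples correlated between -0.209 and 0.295 in their deviations. The replicate block gave 76 members lower in the chase at 30 min and 8 in place of 4 with higher labelled odds without glucose, and moved no other count by over 1.5 times. Crossed numbers, tried after seeing the data, gave 72 members lower from 0 to 30 min without glucose and 75 higher with glucose. Of all features, 1983 of 5495 were then called lower without glucose and 389 of 5442 higher with glucose. Slopes centred on the median of all features, also added after seeing the data, gave 76 steeper, with no count taken over all features. Features with no multimapped reads could give no value, since 0 members are among them. Of 1323 values of single genes or pairs under alternatives, 1272 kept their direction and side of the threshold. Depth limits genes such as RPL39 in polysomes without glucose, at 3.31 and 3.02 CPM.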

Other observations

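The regulators and chaperones of the RPL genes were measured in total RNA of the 4TU set too. SFP1, a zinc finger activator of ribosomal protein genes, was higher without glucose at a log2 change of 1.36 ± 0.278 (SE; edgeR, adjusted p = 5.76e-04), and 6 of the 8 measured regulators were lower. All 7 chaperones were lower, with a median of -1.72, where 29.3% of all features were called lower. LOC1 was lowest at -2.13 ± 0.333 (log2, SE). In the polysome difference, ACL4, the chaperone of Rpl4, at -1.93 ± 0.330 and RRB1, that of Rpl3, at -1.66 ± 0.318 were lower (log2, SE), and the other 5 chaperones were not called.

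Of the 56 RPS genes 46 were lower in the polysome difference and 0 higher, with 8 higher and 5 lower in total RNA. Of all features, 8.01% were lower and 8.16% higher in the polysome difference, and 29.4% were higher and 29.3% lower in total RNA. Of the 5 RPP genes 4 were lower in the polysome difference, and 4 were higher in total RNA.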
